A study of Mus musculus with 13 samples.

Results

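The genes described here are Foxj1, a forkhead transcription factor, and 8 genes of cilia: the regulatory factors Rfx1, Rfx2 and Rfx3, the motile axoneme genes Tekt1, Spag6 and Dnali1, and the intraflagellar transport genes Ift88 and Ift172. They were found by the gene name that the array files give each probe, which gave 17 probes for all 9 genes among the 28785 genes on the array. After a filter on dim probes 6 of the 9 could be tested, with 18282 genes in all; Tekt1, Spag6 and Dnali1 did not pass it. Foxj1 was chosen by its difference between collagen I and Matrigel in normal organoids, so that difference, and every comparison that contains the same arrays, is given for it as a description without a test. The other 8 genes were chosen by function, with the question whether cilia genes follow Foxj1, and with earlier results of these data known.

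The organoids were multicellular epithelial fragments freed by enzymatic digestion from mouse mammary tissue. Tumor organoids came from the largest tumor of MMTV-PyMT mice, aged 12 to 16 weeks, in which a mammary tumor virus promoter drives the polyoma middle T oncogene in mammary epithelium. Normal organoids came from glands of FVB mice whose age the labels do not state. Either kind was set in collagen I from rat tail (3 mg/ml) or in Matrigel, an extract of basement membrane rich in laminin. Every culture, normal ones included, received 2.5 nM of the growth factor FGF2 and was collected on day 4. Each of the 4 groups had 3 arrays: tumor in collagen I (mice A, B and C), tumor in Matrigel (A, B and C), normal in collagen I (A, B and C) and normal in Matrigel (A, B and D). A letter marks the same mouse within a tissue, so p-values measure the spread between mice and arrays together.

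Cilia are microtubule-based projections of the cell surface. Most epithelial cells can form a single primary cilium, a sensory antenna, while multiciliated cells of airway, oviduct and ependyma carry many motile cilia. Foxj1 switches on the genes of motile cilia, often together with factors of the RFX family, which bind a promoter element called the X-box. Intraflagellar transport (IFT) moves cargo along every cilium: the IFT-B complex with kinesin-2 runs to the tip and IFT-A with dynein-2 back to the base.

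Levels are log2 processed signals minus the 75th percentile of the array, so 0 is the brightness of that percentile, and levels of different probes cannot be set against each other. The tumor Matrigel arrays were the dimmest. Their 75th percentile was 383 to 570 signal units, against 691 to 812 in tumor collagen I, 971 to 1216 in normal collagen I and 671 to 1098 in normal Matrigel. Spots well above background made up 56.6% to 58.6% of the tumor Matrigel arrays and 62.1% to 71.4% of the others. Fibroblast markers were low in tumor organoids: their summed signal was 386 to 505% of the 75th percentile in tumor Matrigel, against 1640 to 10780% in normal Matrigel. Leukocyte markers summed to 9342 to 10780% in normal collagen I, against 3690 to 5769% in normal Matrigel. In such bulk samples fewer cells of a type and less RNA per cell cannot be told apart.

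The promoters below are shown because RFX factors, 3 of which are among these genes, bind half-sites of the X-box. The search used the letters GTTGCC on both strands in the 250 bases before each start (RefSeq, GRCm38.p6), and capitals mark the matches. Tekt1, which encodes a microtubule-inner protein of motile axonemes, has 1 match on each strand at chr11:72361883-72362132 on the minus strand, in the first of its 2 listed promoters. Rfx2 has 1 match, at chr17:56831009-56831258 on the minus strand. Rfx3, at chr19:28011167-28011416 on the minus strand, and Ift88, at chr14:57423821-57424070 on the plus strand, are the members other than Foxj1 that changed, and hold none. Rfx1 and Ift172, which were not called, and Spag6 and Dnali1, which were not tested, hold none either.
Tekt1: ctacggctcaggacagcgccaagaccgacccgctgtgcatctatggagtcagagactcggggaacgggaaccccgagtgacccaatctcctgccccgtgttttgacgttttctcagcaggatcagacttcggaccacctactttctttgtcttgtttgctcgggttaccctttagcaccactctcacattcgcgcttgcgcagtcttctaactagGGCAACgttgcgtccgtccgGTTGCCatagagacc
Rfx2: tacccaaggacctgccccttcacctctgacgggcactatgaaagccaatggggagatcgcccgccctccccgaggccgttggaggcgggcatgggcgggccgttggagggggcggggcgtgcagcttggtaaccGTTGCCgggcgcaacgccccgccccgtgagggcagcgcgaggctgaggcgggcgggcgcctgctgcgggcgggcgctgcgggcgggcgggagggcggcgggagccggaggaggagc
Rfx3: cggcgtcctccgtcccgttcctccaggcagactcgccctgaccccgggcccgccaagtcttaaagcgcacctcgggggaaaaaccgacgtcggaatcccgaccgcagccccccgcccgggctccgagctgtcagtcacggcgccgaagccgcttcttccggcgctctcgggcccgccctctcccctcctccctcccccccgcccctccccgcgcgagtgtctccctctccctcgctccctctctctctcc
Ift88: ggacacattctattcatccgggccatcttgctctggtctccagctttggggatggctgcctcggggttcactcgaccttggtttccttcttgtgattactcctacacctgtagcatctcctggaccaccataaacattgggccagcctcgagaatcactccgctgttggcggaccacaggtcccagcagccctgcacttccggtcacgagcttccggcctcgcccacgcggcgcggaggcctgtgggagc
The matches in Tekt1 lie 35 to 30 and 15 to 10 bases before the start, and the match in Rfx2 116 to 111 bases before it. Of all promoters 10.5% hold the half-site (2833 of 27025), against 38.9% of the other motile axoneme genes (21 of 54), 31.8% of other IFT genes (7 of 22), 13.6% of genes of the transition zone and primary cilium (3 of 22) and 11.1% of the BBSome (1 of 9). A full X-box, searched as 2 relaxed half-sites in inverted order up to 3 bases apart, was held by 5.60% of 125 other cilia genes and 0.866% of all promoters. The forkhead core TGTTTAC, on both strands, was held by 5.56% of the motile axoneme promoters and 3.09% of all. A match is a description of the letters and does not show binding.

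Foxj1 was lowest in normal organoids in Matrigel and high in the other groups. Its probe, placed by the files at chr11:116439945-116440004 (build mm7), was well above background on all 12 arrays. In tumor organoids it read -0.48, 0.47 and -0.28 in collagen I for mice A, B and C, against -0.78, -1.33 and -1.34 in Matrigel. In normal organoids it read -0.60, -0.14 and -1.34 in collagen I for mice A, B and C, against -4.41, -3.70 and -3.80 in Matrigel for A, B and D. The 3 normal Matrigel arrays lay below each of the other 9, and the collagen I arrays of both tissues overlapped.

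As means, Foxj1 stood at -0.10 ± 0.50 in tumor collagen I, -0.69 ± 0.60 in normal collagen I, -1.15 ± 0.32 in tumor Matrigel and -3.97 ± 0.38 in normal Matrigel (SD, n = 3 each). Neighbours in that order overlapped down to the step between tumor Matrigel and normal Matrigel. The difference between collagen I and Matrigel in normal organoids, on which the gene was chosen, was 3.28 ± 0.35 on the log2 scale (± standard error throughout for differences), or 9.69-fold. Within the 2 mice with both gels it was 3.81 and 3.56, and on the 2 slides that carried both gels it was 3.20 and 2.36.

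The fold change of Foxj1 between the gels in tumor organoids contains none of the arrays on which it was chosen. Its p-value does draw on them, through the spread that all 12 arrays share in the fit. In tumor organoids Foxj1 was 1.05 ± 0.35 higher in collagen I, or 2.08-fold (limma with Benjamini-Hochberg adjustment, adjusted p = 0.0458). With only the tumor groups in the fit the limma adjusted p was 0.0664. The 2 gels did not overlap, as for the 19.8% of all genes that were all higher there. All 3 mice showed the direction, at 0.30, 1.80 and 1.06, as did the 1 slide with both gels, at 0.86. The call was close to its limit: with mouse as a block the limma adjusted p was 0.0564, and over 29 alternatives it ran from 0.0269 to 0.189, over the threshold in 17. Of the 12 arrays left out in turn 8 took the limma adjusted p of Foxj1 over the threshold: any of tumor collagen I A, B and C, tumor Matrigel B and C, normal collagen I A and normal Matrigel B and D. Without tumor collagen I mouse B the difference was 0.77 (limma adjusted p = 0.129).

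Between the tissues, Foxj1 was 2.82 higher in tumor than in normal organoids in Matrigel, or 7.07-fold, and 0.60 higher in collagen I, or 1.51-fold. The gel effect in tumor organoids was thus 2.22 smaller than in normal ones. On the slide that carried both tissues in Matrigel the difference was 2.47, and on the one with both in collagen I it was -0.14. Another hybridisation in batch 1 read -2.69 and -3.68 for normal Matrigel mice A and B, so mouse A differed by 1.72 between its 2 arrays; with the batch 1 arrays in place of those of batch 2, the normal gel difference of Foxj1 was 2.70.

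**Figure D1:**
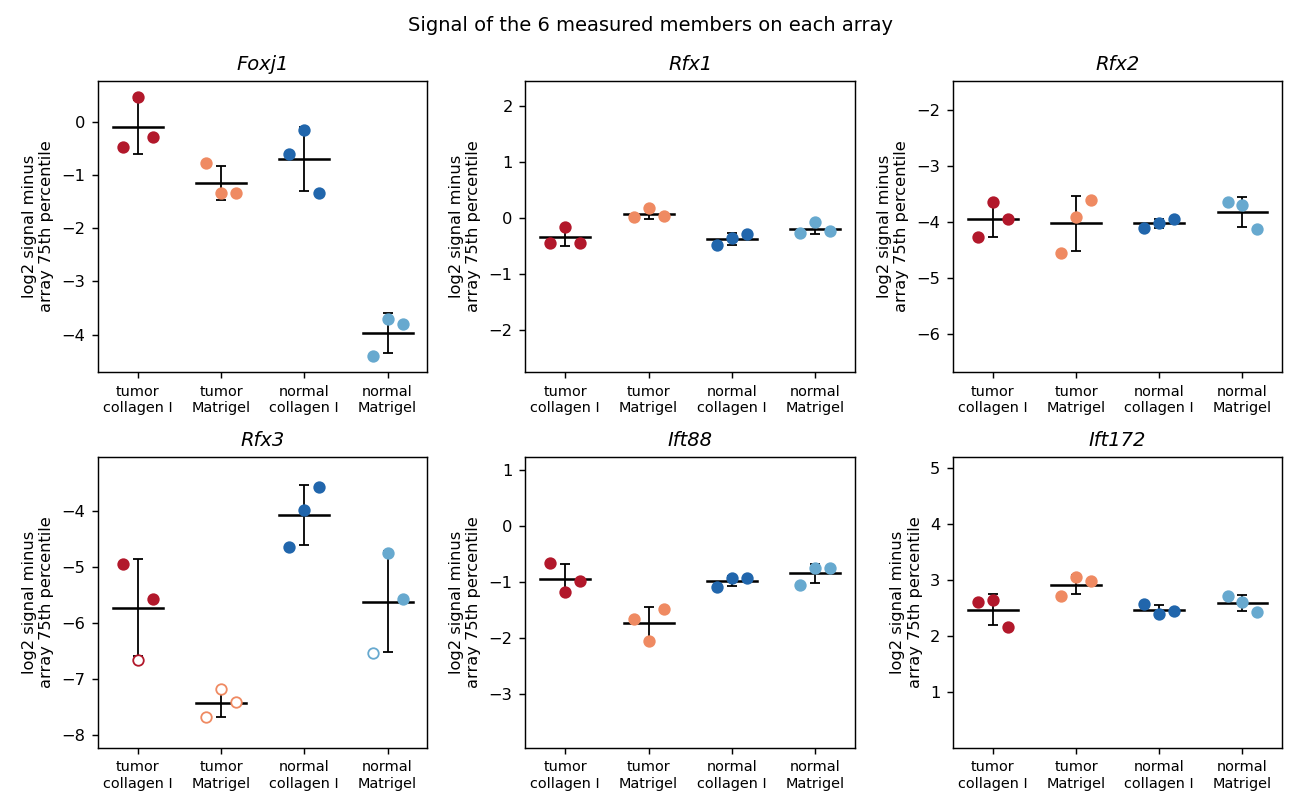
Level of the 6 members that passed the filter on each of the 12 arrays, as log2 signal minus the array's 75th percentile (vertical axis), by group (horizontal axis); points are mice, filled where well above background, bars are means and whiskers SDs over 3 mice. Foxj1 stands apart in normal Matrigel, at -4.41 to -3.70, while Ift88 and Rfx3 are lowest in tumor Matrigel.

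Rfx1 and Rfx2 did not share the pattern of Foxj1. Rfx3 shared its direction between the gels in the main fit, but not between the tissues. Rfx1, a broadly expressed member of the family, read -0.45, -0.17 and -0.44 in tumor collagen I, against 0.00, 0.17 and 0.03 in tumor Matrigel. It read -0.49, -0.36 and -0.28 in normal collagen I, against -0.27, -0.09 and -0.24 in normal Matrigel. It was thus lower in collagen I in both tissues without overlap, as were 18.6% of all genes in tumor and 10% in normal organoids. The differences of Rfx1 were -0.42 ± 0.15 in tumor and -0.18 ± 0.15 in normal organoids, neither past the threshold (limma adjusted p = 0.0604 and 0.82). Over the alternatives the limma adjusted p in tumor organoids ran from 0.0286 to 0.297. The second Rfx1 probe gave -0.08 in tumor and -0.05 in normal organoids.

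Rfx2, which acts with Rfx3 on motile cilia genes, was dim and level, at -3.95 ± 0.31 in tumor collagen I, -4.03 ± 0.49 in tumor Matrigel, -4.03 ± 0.08 in normal collagen I and -3.82 ± 0.26 in normal Matrigel (SD, n = 3 each). The groups overlapped, and no comparison of Rfx2 passed by limma, the lowest adjusted p being 0.53 for tumor against normal in Matrigel. The difference there was -0.20 ± 0.26, and it turned to 1.01 (limma adjusted p = 0.0283) with normexp background and 75th percentile scaling, which also moved the median of all genes to 0.45.

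Rfx3, needed in mice for nodal and ependymal cilia, had its lowest mean in tumor Matrigel and its highest in normal collagen I, by its brightest probe. Its brightest probe read -4.95, -6.66 and -5.56 in tumor collagen I, against -7.68, -7.17 and -7.41 in tumor Matrigel, where no array was well above background. In normal organoids it read -4.63, -3.97 and -3.57 in collagen I, against -6.53, -4.74 and -5.56 in Matrigel. The collagen I arrays lay above the Matrigel arrays in each tissue, as for 19.8% of all genes in tumor and 11.6% in normal organoids. Rfx3 passed the filter only through normal collagen I, the group in which it was highest, so it could enter the tests only by being bright there.

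In tumor organoids Rfx3 was at least 3.25-fold higher in collagen I than in Matrigel (1.70 ± 0.50, limma adjusted p = 0.0299). The normal collagen I arrays, through which Rfx3 passed the filter, are in neither this difference nor that of the tissues in Matrigel. They do share the spread behind both p-values. With only the groups compared in the fit, Rfx3 did not pass the filter in either comparison. The p-values of Rfx3 are therefore given as a description. In normal organoids the gels differed by 1.55 ± 0.50, which did not pass. With batch 1 in place of batch 2 that difference of Rfx3 was 0.50, and over the alternatives it ran from 0.35 to 1.99. The gel effects differed by 0.15 ± 0.71, and by -1.27 to 1.20 over the alternatives. In Matrigel Rfx3 was at least 3.51-fold lower in tumor than in normal organoids (-1.81 ± 0.50, limma adjusted p = 0.0121), and in collagen I it stood at -1.66 ± 0.50, which did not pass. In Matrigel Rfx3 was thus lower in tumor organoids where Foxj1 was higher. Every mouse with both gels had Rfx3 higher in collagen I, by 2.73, 0.51 and 1.85 in tumor organoids and by 1.90 and 0.77 in normal ones. Within slides Rfx3 differed by 2.47 between the gels in tumor organoids, by 0.93 and 1.17 in normal ones, and by -1.61 between the tissues in Matrigel.

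These Rfx3 values depended on the background correction and on single probes. Normexp background with 75th percentile scaling turned the gel effect in tumor organoids to -0.92 (limma adjusted p = 0.152) and the tissue difference in Matrigel to 1.29 (limma adjusted p = 0.0334). Over 27 alternatives the limma adjusted p of the first ran from 0.0118 to 0.181, with 8 over the threshold, 5 of them leaving out 1 tumor array, namely tumor collagen I A (0.114) or C (0.0755) or tumor Matrigel A (0.0778), B (0.0642) or C (0.0590). The tissue difference of Rfx3 in Matrigel was -1.38 without normal Matrigel mouse B (limma adjusted p = 0.0514). A second probe of Rfx3 gave 0.93 between the gels in tumor organoids (limma adjusted p = 0.169) and -1.67 between the tissues in Matrigel (limma adjusted p = 0.0142). A further probe did not pass the filter. The batch 1 arrays of normal Matrigel read -4.34 and -3.78 for mice A and B, above the batch 2 readings of the same mice and within the range of normal collagen I.

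Ift88, a core subunit of IFT-B needed to form cilia in mice, was lowest in tumor Matrigel. It read -0.65, -1.17 and -0.98 in tumor collagen I, against -1.65, -2.05 and -1.48 in tumor Matrigel. In normal organoids it read -1.08, -0.92 and -0.92 in collagen I, against -1.04, -0.74 and -0.74 in Matrigel. The tumor Matrigel arrays lay below all the other 9, and the remaining groups overlapped. Of all genes 19.8% were all higher in collagen I in tumor organoids, and 28.1% all lower in tumor than in normal organoids in Matrigel.

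Ift88 was 0.79 ± 0.20 higher in collagen I than in Matrigel in tumor organoids, or 1.73-fold (limma adjusted p = 0.0164). In normal organoids it differed by -0.13 ± 0.20 (limma adjusted p = 0.926). In Matrigel it was lower by -0.89 ± 0.20 in tumor than in normal organoids (limma adjusted p = 0.00424), while in collagen I the tissues differed by 0.04 ± 0.20 (limma adjusted p = 0.936). The difference of its gel effects, 0.92 ± 0.28, missed the threshold (limma adjusted p = 0.0872, and 0.0475 to 0.493 over the alternatives). All 3 tumor mice had Ift88 higher in collagen I, by 1.00, 0.88 and 0.50, and the 1 slide with both gels by 0.82; the slide with both tissues in Matrigel had it at -1.31. With normexp background and 75th percentile scaling the gel effect in tumor organoids was 0.20 (limma adjusted p = 0.458) and the tissue difference in Matrigel -0.25 (limma adjusted p = 0.299). Without tumor collagen I mouse A the gel effect in tumor organoids was 0.65, and without tumor Matrigel mouse B 0.63 (limma adjusted p = 0.0663 and 0.0586).

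Ift172, the largest IFT-B subunit, had 4 probes that disagreed in tumor organoids. The brightest read 2.61, 2.65 and 2.16 in tumor collagen I, against 2.72, 3.05 and 2.98 in tumor Matrigel, and 2.57, 2.39 and 2.45 in normal collagen I, against 2.72, 2.61 and 2.44 in normal Matrigel. It was lower in collagen I in tumor organoids without overlap, as were 18.6% of all genes. The difference was -0.44 ± 0.18 (limma adjusted p = 0.0913), opposite to Ift88. The other probes gave -0.43, -0.10 and 0.03 there, and the 4 probes gave 0.33, 0.17, -0.45 and -0.16 between the tissues in Matrigel. No probe of Ift172 passed in any comparison.

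Tekt1, Spag6 and Dnali1, which build motile axonemes, were at or near background. Dnali1, an inner dynein arm light chain, read -4.27, -5.51 and -6.10 in tumor collagen I, against -7.67, -6.85 and -7.50 in tumor Matrigel. It read -5.23, -5.88 and -6.51 in normal collagen I, against -6.76, -6.93 and -6.00 in normal Matrigel. Only 3 of these 12 readings were well above background: tumor collagen I mouse A and normal collagen I mice A and B. In batch 1, however, normal Matrigel mouse B read -4.44, well above background, and mouse A -5.43, not well above it. Readings not well above background have no order, so no separation of the gels is read from them.

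Of the Tekt1 probes 1 was well above background on a single array, tumor collagen I mouse A at -6.13, and the other on none. Its first probe read -7.45, -8.58 and -8.72 in normal collagen I, against -6.28, -6.54 and -7.67 in normal Matrigel, none well above background and so without order. The Spag6 probes, for a protein of the axoneme's central pair, were above background on 0 of 12 arrays and ranged from -8.70 to -5.65. The accession of 1 of them belongs to Spag6l in RefSeq. No fold change is given for these genes.

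**Figure D2:**
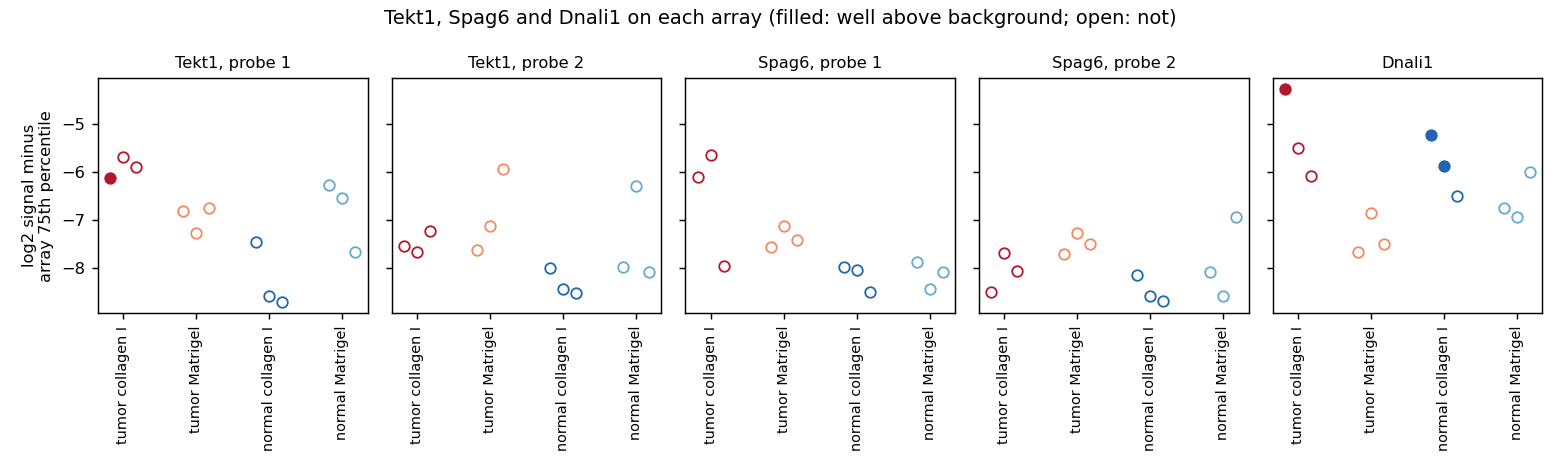
Level of the 5 probes of Tekt1, Spag6 and Dnali1 on each array (vertical axis: log2 signal minus the array's 75th percentile; horizontal axis: group), with filled points well above background and open points not. Of 60 points 4 are filled, 3 of Dnali1 and 1 of Tekt1, all in collagen I. The batch 1 arrays of normal Matrigel are not drawn, where Dnali1 was well above background in mouse B, at -4.44.

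The count of members that changed is given beside the share of all genes that did. In tumor organoids 2 of the 5 tested members other than Foxj1, Rfx3 and Ift88, were higher in collagen I and 0 lower, where 15.8% of all genes were higher and 12.1% lower. Rfx3 passed the filter only through 1 group, normal collagen I. Among genes above background on all 12 arrays the count was 1, Ift88, and with only the tumor groups in the fit it was 0. Of all genes 12.6% and 8.54% were higher in these fits. In normal organoids 0 were called by limma in either direction, where 0.0383% of genes were higher and 0.00547% lower. In Matrigel the same pair, Rfx3 and Ift88, was lower in tumor than in normal organoids and 0 were higher, where 25.9% of genes were lower and 25.7% higher. Among genes above background on all 12 arrays the count lower was again 1, where 21% of all such genes were lower. In collagen I limma called 0, where 3.64% of genes were higher and 5.0% lower. For the difference of gel effects limma also called 0 (1 at an unadjusted p under 0.05, Ift88), where 1.34% of genes were higher and 1.29% lower.

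The background shares depended on the scaling. With normexp background and 75th percentile scaling the gel comparison in tumor organoids had 2.66% higher and 4.12% lower, with the median of all genes at -0.32. In Matrigel 38.7% were then higher and 11.5% lower in tumor organoids, with the median at 0.45. In collagen I 2.3% were higher and 1.77% lower in tumor organoids, with the median at 0.16. The difference of gel effects had 0.00547% higher and 0.0492% lower, with the median at -0.29, and in normal organoids collagen I had 4 genes higher and 0 lower. With normexp and quantile normalization 0.334% were higher and 0.148% lower between the gels in normal organoids, and the gel effects had 0.394% higher and 0.81% lower. Quantile normalization alone gave 0.0711% higher and 0.0273% lower between the gels in normal organoids.

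A wider set of 147 cilia genes, which excludes the members, asked whether the rise of Foxj1 in normal organoids went with other cilia genes. Of these 139 were on the array, 106 passed the filter and 18 were above background on no array. Between the gels in normal organoids limma called 0 of the 106, with 1 at an unadjusted p under 0.05. Of all genes 0.0383% were higher and 0.00547% lower, so a count of 0 is near the share of all genes. The median difference was -0.03, beside -0.01 for all genes, and 43 of 106 stood above 0. Among the motile axoneme genes, many of them known targets of Foxj1, 34 of 64 were tested and 14 were nowhere above background. Their values ran from -0.63 to 0.58 with a median of -0.07, 12 of 34 above 0, against 3.28 for Foxj1.

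The brightest genes of 4 lists are given as examples for normal organoids. Gas8, of the nexin-dynein regulatory complex, differed by 0.11 ± 0.22, and the IFT-B genes Ift46 and Ift20 by 0.08 ± 0.16 and 0.12 ± 0.18. B9d1 and B9d2, of the transition zone gate, differed by 0.25 ± 0.37 and 0.07 ± 0.26, and Bbs9 and Bbs5, of the cargo-sorting BBSome, by -0.04 ± 0.18 and -0.10 ± 0.18. The limma adjusted p of these genes ran from 0.921 to 0.981. Among the brightest genes of other lists Myb differed by -0.65 ± 0.51, Dync2li1, of dynein-2, by 0.38 ± 0.20 and Ift43 by 0.33 ± 0.16 (limma adjusted p = 0.806, 0.629 and 0.61). Dync2li1 and Ift43 were higher without overlap of the gels, as were 11.6% of all genes. The leukocyte markers did move in this comparison, with 14 of 15 above 0 and a median of 1.49, though limma called 0 of them (10 at an unadjusted p under 0.05); their part in the Foxj1 difference was not tested.

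In tumor organoids, where Foxj1 was 2.08-fold higher in collagen I, many cilia genes were higher too. Of the 106, 38 were higher and 7 lower by limma, where 15.8% of all genes were higher and 12.1% lower. The median was 0.40 beside -0.04 for all genes. Among genes above background on all 12 arrays 34 of 90 were higher and 6 lower, where 12.6% and 15.3% of all such genes were. With mouse as a block it was 32 higher and 5 lower, and with the authors' deposited log2 values 27 and 7. With normexp background and 75th percentile scaling it was 5 and 1, where 2.66% of all genes were higher and 4.12% lower. The tumor Matrigel arrays were also the dimmest, and the fibroblast markers, though low, stood above 0 in this comparison for 6 of 6 genes, with 1 called and a median of 0.77. Basal markers stood above 0 for 5 of 6 genes, with 1 called and a median of 0.55. Endothelial markers did so for 0 of 4, with 0 called and a median of -0.77. The part of these cells in the count was not tested.

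Genes of the cilium's transport and gate made up most of these calls. Of 26 IFT genes besides the members 11 were higher and 0 lower, with a median of 0.51, where 15.8% of all genes were higher and 12.1% lower. Ift74, a core subunit of IFT-B, was 1.89 ± 0.37 higher (limma adjusted p = 0.00629), Ift80 1.42 ± 0.21, Ttc30b 1.30 ± 0.24 and Ift81 1.29 ± 0.29. Of IFT-A, Ttc21b was 1.27 ± 0.20 higher, Wdr19 0.98 ± 0.16 and Wdr35 0.70 ± 0.16. Of the motors, Dync2h1, the dynein-2 heavy chain, was 1.04 ± 0.27 higher and Kif3b, of kinesin-2, 0.51 ± 0.14 (limma adjusted p = 0.00219 to 0.0219 for these genes).

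The BBSome had 5 of 9 genes higher and 0 lower, with a median of 0.61, beside 15.8% of all genes higher and 12.1% lower. Bbs7 was at least 3.67-fold higher, and Ttc8, Bbs4 and Arl6, the GTPase that recruits the complex, were 1.45 ± 0.30, 1.16 ± 0.24 and 1.04 ± 0.20 higher. Of 24 genes of the transition zone and primary cilium 11 were higher and 3 lower, with a median of 0.60. Ccp110, which caps the mother centriole and holds back cilium growth, was 2.33 ± 0.32 higher, Rpgrip1l 2.19 ± 0.18, Alms1 1.82 ± 0.28 and Cep290 1.42 ± 0.38 (limma adjusted p = 0.000259 to 0.0209). A set that holds Ccp110 beside Cep290 thus has members of opposed roles.

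Motile axoneme genes moved both ways in tumor organoids, with 8 of 34 higher, 2 lower and a median of 0.11. Of all genes 15.8% were higher and 12.1% lower. Efhb, a microtubule inner protein, was at least 5.22-fold higher (limma adjusted p = 0.00282), Mns1 1.81 ± 0.31 and Iqcg 1.68 ± 0.31 higher, and Tekt5, a tektin known from sperm, -1.51 ± 0.27 lower. Of the dynein assembly factors 1 of 6 was higher, Dyx1c1 by 1.16 ± 0.17, and 1 lower, Heatr2 by -0.70 ± 0.24. Of other ciliogenesis factors Rfx7 and Rfx5, an activator of MHC class II genes, were 1.01 ± 0.21 and 0.95 ± 0.19 higher, and Ccno (Ung2 in the files), of multiciliated cell precursors, -1.33 ± 0.40 lower. Of 8 hedgehog genes, a pathway that signals through primary cilia, 1 was higher, its target Gli1 by 0.67 ± 0.21 (limma adjusted p = 0.0379), and 0 lower.

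**Figure D3:**
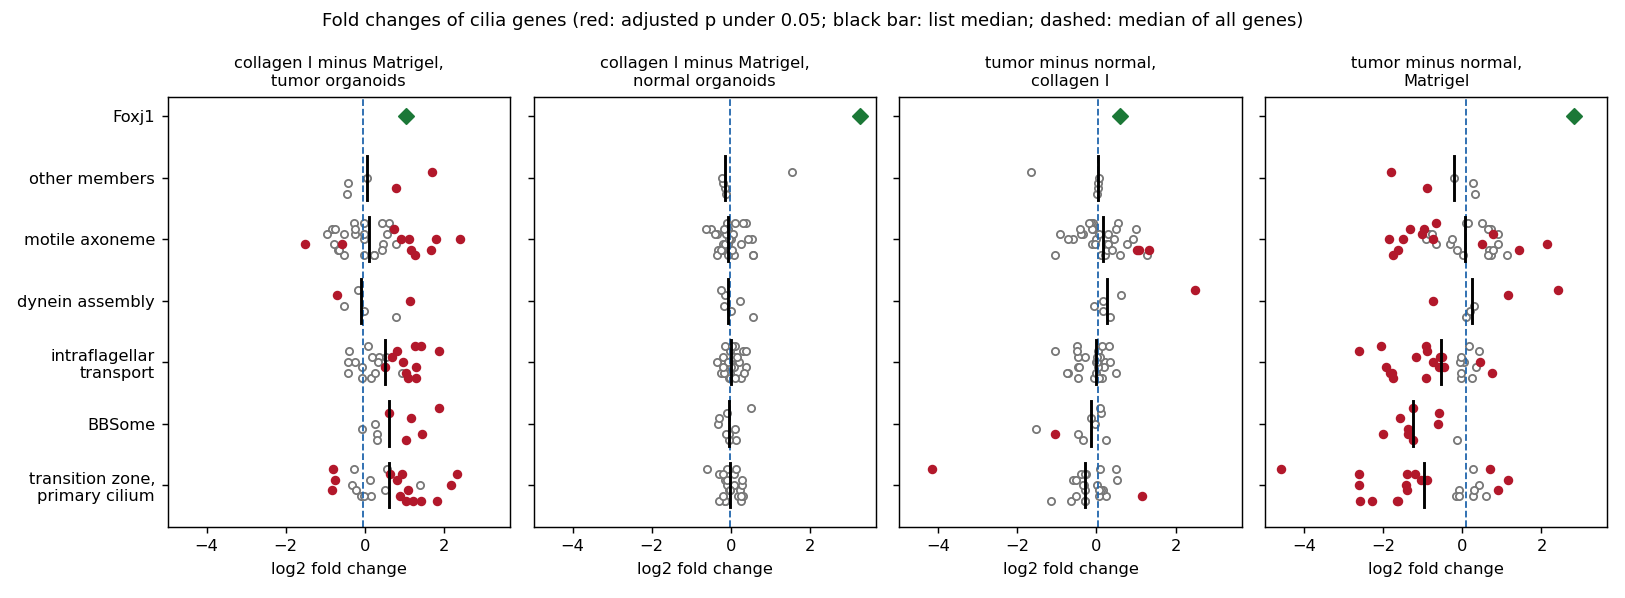
Log2 fold change (horizontal axis) of Foxj1, the other 5 tested members and the cilia gene lists (vertical axis) in 4 comparisons; red points passed an adjusted p of 0.05 in limma, black bars are list medians, the dashed line is the median of all genes, and Foxj1 is drawn as a diamond without a test mark. In normal organoids the lists centre near 0 with Foxj1 at 3.28, while in Matrigel the medians of the IFT, BBSome and transition zone genes lie on the other side of 0 from Foxj1.

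In Matrigel, where Foxj1 was 2.82 higher in tumor organoids, more cilia genes were lower than higher. By limma 49 of the 106 were lower and 12 higher, where 25.9% of all genes were lower and 25.7% higher, and 40 of the 106 stood above 0. The median was -0.49 beside 0.08 for all genes. Of the IFT genes 15 of 26 were lower and 2 higher. Ift74 was -2.62 ± 0.37 lower, Ift80 -2.06 ± 0.21, Ttc30b -1.92 ± 0.24 and Ttc30a1 -1.84 ± 0.33, Dync2h1 -1.77 ± 0.27 and Wdr19 -0.75 ± 0.16, while Ift43, of IFT-A, was 0.75 ± 0.16 higher (limma adjusted p = 7.71e-05 to 0.00361). Ttc30a1 and Ttc30b are near copies, so their probes may share signal.

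All but 1 of the 9 BBSome genes were lower in tumor organoids in Matrigel, 8 in all, with a median of -1.26: Ttc8 by -2.02 ± 0.30, Bbs4 by -1.58 ± 0.24 and Bbip1 by -1.38 ± 0.24, and Bbs1 at least 2.58-fold. Of the transition zone and primary cilium 13 of 24 were lower and 3 higher. Of all genes 25.9% were lower and 25.7% higher in this comparison. Nphp4, of the transition zone, was at least 23.8-fold lower (limma adjusted p = 9.18e-05), and Ccp110, Rpgrip1l and Alms1 were -2.62 ± 0.32, -2.61 ± 0.18 and -2.60 ± 0.28 lower. Among genes above background on all 12 arrays 41 of 90 were lower and 12 higher, where 21% and 30.9% of all such genes were. With normexp background and 75th percentile scaling the counts were 21 lower and 30 higher of 106, with the median at 0.14 beside 0.45 for all genes. Of all genes 11.5% were then lower and 38.7% higher. Fibroblast markers fell in the same comparison, 6 of 6 by limma with a median of -2.88, and endothelial markers 3 of 4 with a median of -4.10. Of 6 basal markers 2 were lower and 1 higher, with a median of -0.38. The part of these cells in the counts was not tested.

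Of the motile axoneme genes 9 of 34 were lower and 4 higher in tumor organoids in Matrigel, with a median of 0.06; the share lower was near that of all genes, 25.9%. Mns1, Tekt2 and Iqcg were -1.87 ± 0.31, -1.75 ± 0.37 and -1.63 ± 0.31 lower, and Tekt5 was 2.15 ± 0.27 higher. Zmynd10 and Heatr2, which help to assemble axonemal dyneins, were 2.42 ± 0.30 and 1.16 ± 0.24 higher, and Dyx1c1 was -0.75 ± 0.17 lower. Of the ciliogenesis factors Myb, a regulator of progenitors of many lineages including multiciliated cells, was -3.70 ± 0.51 lower, Rfx7 -1.27 ± 0.21 and Rfx5 -0.97 ± 0.19, and Ccno was 1.18 ± 0.40 higher. Of the hedgehog genes Gli3 was -1.79 ± 0.38 lower, and the ligand gene Dhh 2.24 ± 0.65 higher although its arrays overlapped.

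In collagen I the tissues differed in few cilia genes, as in few of all genes. Of the 106, 5 were higher and 3 lower in tumor organoids by limma, near the 3.64% of all genes higher and 5.0% lower. The median was 0.02 beside 0.05 for all genes, and of the IFT genes 0 were called (7 at an unadjusted p under 0.05). Zmynd10 was 2.50 ± 0.30 higher (limma adjusted p = 0.000512), and the axoneme genes Drc1, Ccdc40 and Rsph1, of the regulatory complex, its ruler and the radial spokes, 1.33 ± 0.35, 1.09 ± 0.25 and 1.02 ± 0.27. Cep97, the partner of Ccp110, was 1.16 ± 0.25 higher. Nphp4 was -4.16 ± 0.49 lower, Myb -3.09 ± 0.51 and Bbip1 -1.04 ± 0.24 (limma adjusted p = 0.000415 to 0.0218).

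The means of the IFT, BBSome and transition zone lists were lowest in tumor Matrigel. Relative to the mean over the 12 arrays, the 26 IFT genes stood at -0.49, -0.49 and -0.41 in tumor Matrigel, against -0.11 to 0.29 in tumor collagen I, 0.14 to 0.32 in normal collagen I and 0.13 to 0.20 in normal Matrigel. The BBSome stood at -0.70, -0.95 and -0.62 in tumor Matrigel and -0.27 or above elsewhere. The transition zone genes stood at -0.62, -0.57 and -0.56 there and -0.17 or above elsewhere. The motile axoneme genes overlapped among all 4 groups, from -0.27 to 0.38.

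**Figure D4:**
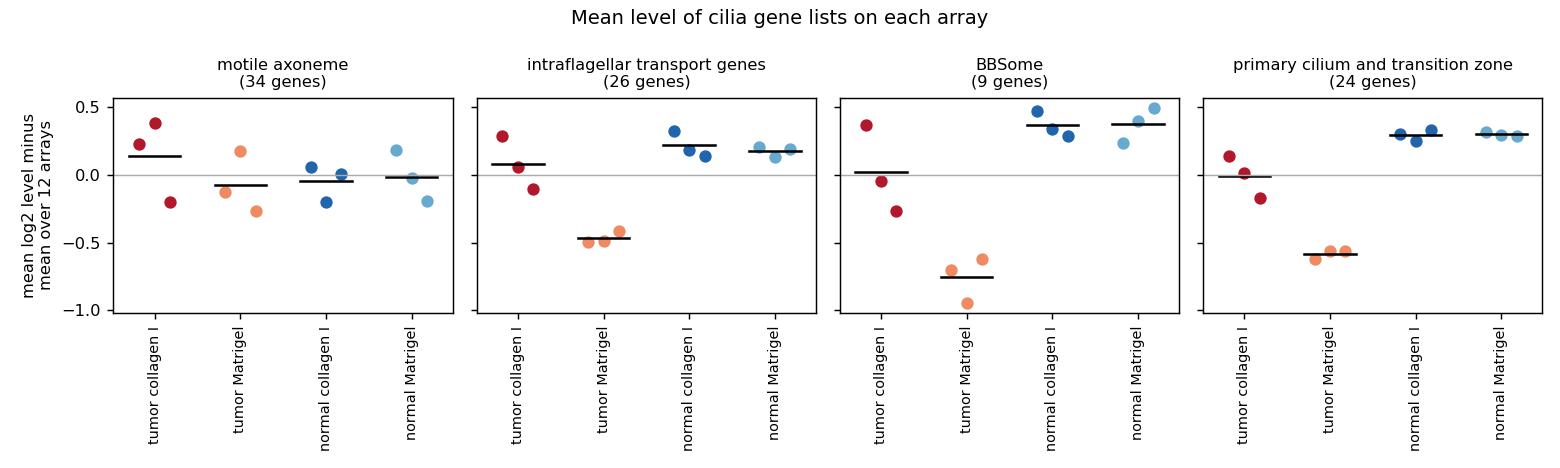
Mean log2 level of the genes of 4 cilia lists on each array, relative to the mean over all 12 arrays (vertical axis), by group (horizontal axis); points are mice and bars group means. The IFT, BBSome and transition zone lists are lowest on the 3 tumor Matrigel arrays, at -0.95 to -0.41, and the motile axoneme list overlaps among the groups.

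The gel effect was higher in tumor than in normal organoids for 8 of the 106 cilia genes and lower for 0 by limma. Of all genes 1.34% were higher and 1.29% lower. The median difference of effects was 0.40 for the cilia genes beside -0.01 for all genes. Foxj1 differed the other way, by -2.22. With mouse as a fixed block 0 of the 106 passed by limma, as did 0 of all genes tested. With mouse as a random block 18 were higher and 2 lower, where 4.98% of all genes were higher and 4.38% lower.

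Cilia genes with and without a promoter half-site had close medians in collagen I against Matrigel, and medians further apart between the tissues in Matrigel. In tumor organoids 6 of 23 tested genes with a GTTGCC match were higher in collagen I and 2 lower, with a median of 0.26, against 22 of 65 higher, 4 lower and a median of 0.27 for those without. Of all genes 15.8% were higher and 12.1% lower there. In normal organoids the medians were -0.12 with and -0.03 without. Limma called 0 in both sets, where 0.0383% of all genes were higher and 0.00547% lower. Between the tissues in Matrigel 2 of 23 were higher and 8 lower with a match, with a median of 0.02, against 8 and 30 of 65 and a median of -0.32 without. Of all genes 25.7% were higher and 25.9% lower in that comparison. These differences between the sets were not tested.

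Across the 12 arrays the levels most like that of Foxj1 were not those of cilia genes. Among 18246 genes those with a symbol and the highest Pearson r included Ptgs2 (0.94), Ankrd1 (0.93), Cp (0.91), Bik (0.91), Sync (0.91), Hsph1 (0.91), Cxadr (0.90), Ptger4 (0.90) and Napepld (0.89). They include Ptgs2, the inducible cyclooxygenase of prostaglandin synthesis, Ptger4, a prostaglandin E2 receptor, and Cp, the copper carrier ceruloplasmin. Ptgs2 averaged -0.77 in tumor collagen I, -1.60 in tumor Matrigel, -1.45 in normal collagen I and -3.74 in normal Matrigel, in the same order as Foxj1.

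The other members had an r with Foxj1 of 0.03 for Rfx3, -0.12 for Ift172, -0.19 for Rfx1, -0.23 for Ift88 and -0.27 for Rfx2. Of the motile axoneme genes 2 of 34 had an r above 0.5 (5.88%), with a median of 0.02, and of all 106 cilia genes 5 (4.72%), where 8.82% of all genes did. These correlations describe 12 arrays in 4 groups, which share the scaling, and carry no test.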

How the data were processed

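RNA of mouse mammary organoids was amplified, labelled with Cy3 and read on 14 1-colour Agilent arrays, per the labels. The deposited intensity is Agilent's processed signal per spot; the file headers name Feature Extraction 9.5 and the submitters' processing notes 9.1. The authors' deposited log2 values served as an alternative. The 12 arrays of batch 2 were compared; 2 arrays of batch 1 repeat normal Matrigel mice A and B.

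Processed signals were taken as log2 minus each array's 75th percentile, without control and outlier-flagged spots, and averaged per probe (41174 probes). A probe was kept where all arrays of some group had it well above background (26618 probes), and the brightest stood for a gene. limma 3.58.1 (R 4.3.3) took 1 mean per group (8 residual and 2.75 prior degrees of freedom), with Benjamini-Hochberg adjustment over 18282 genes and a threshold of 0.05; the fit was tested on simulated data. "At least N-fold" sets a group not well above background on any array at the higher of its own signal and the lowest signal well above background. 3 arrays against 3 allow no exact permutation p under 0.1. The number of arrays limits the precision.

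Members and lists were chosen with earlier results of these data known. Named were all members, up to 4 called genes per list by size or the 2 brightest, and the 10 genes most like Foxj1; 1 of these 10 is not reported here, and some list genes were left out for length. Letters pair the gels within a tissue, per the labels; deviations of same-mouse arrays correlated at 0.24 and -0.24 (normal A, B) and -0.06, 0.32 and 0.42 (tumor A, B, C). Gene names came from RefSeq accessions for 55.7% of probes and otherwise from the files, promoters from RefSeq (GRCm38.p6); no genome was used, so probe positions are those of the files (mm7), and exon or UTR annotation was not used here. Figures were drawn with matplotlib 3.10.9.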

Additional observations from a re-analysis of the deposited data

Results flagged for a closer look

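For 8 cilia genes the effect of the gel differed between the tissues by an interaction term in limma: each was higher in collagen I in tumor organoids relative to the gel effect in normal ones. Of all genes 1.34% had a higher and 1.29% a lower gel effect in tumor organoids. The difference of effects was 2.26 for Rpgrip1l (limma adjusted p = 0.00755), 2.24 for Ccp110 (0.0371), 1.96 for Alms1 (0.0379) and 1.57 for Ift80 (0.0346). It was 1.91 for Iqcg, 1.49 for Ttc30b and 1.45 for Bbs4 (limma adjusted p = 0.0498 for all 3) and 1.23 for Ttc21b (0.0472). None of the 8 passed by limma with mouse as a fixed block, where 0 of all genes did. With mouse as a random block 18 of the 106 cilia genes were higher, where 4.98% of all genes were. Over the alternatives other than leaving out an array the count of such cilia genes ran from 0 to 19. The share of all genes ran from 0 to 10.4%. Foxj1, chosen on one of the effects, is not among them; its difference was -2.22.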

How the results depend on the processing

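Of the alternatives tried for all results, 1273 values kept their call, 94 moved, 32 lost and 11 gained a call, and 3 changed sign with a call before or after. Among the 1273, 54 member fold changes that passed neither before nor after changed sign, most of them of Rfx2 and Ift172. Foxj1 between the gels in normal organoids (3.28) was 2.31 with normexp background and 75th percentile scaling, 2.03 with normexp and quantile normalization and 2.70 with batch 1 in place, and 3.00 to 3.6 leaving out 1 array. In tumor organoids (1.05) Foxj1 lost its call at 0.91 with quantile normalization, 0.67 with normexp and the 75th percentile, 0.76 with normexp and quantile normalization, 0.90 with the authors' values and 0.69 with slide as a fixed term. It also lost it at 1.05 with no filter, batch 1 in place, mouse as a block or only the groups compared, and ran from 0.77 to 1.25 leaving out 1 array. The 3 signs that changed with a call, all with normexp and the 75th percentile, were Rfx2 in Matrigel (1.01), Rfx3 between the gels in tumor organoids (-0.92) and Rfx3 between the tissues in Matrigel (1.29); the cause was not tested.

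Among the 5 other members, counts higher in collagen I in tumor organoids (2) were 0 with normexp and the 75th percentile or only the groups compared and 1 with normexp and quantile normalization, genes above background on all 12 arrays, or slide fixed. The shares of all genes higher were, in that order, 2.66%, 8.54%, 11.8%, 12.6% and 10.6%. The count lower there was 1 with quantile normalization (with or without normexp) and with mouse or slide as a random block. In Matrigel tumor counts higher were 2 with normexp and the 75th percentile and 1 with batch 1 in place, and counts lower 0 with normexp and the 75th percentile and 1 with normexp and quantile normalization, the all-12 filter or only the groups compared. In collagen I 1 was higher with no filter and 1 lower with batches averaged, and 1 gel effect was higher in tumor with a random block of mouse or slide. Leaving out 1 array gave 0 to 3 higher (3 without normal collagen I mouse C, when 6 such genes passed the filter; 0 without tumor collagen I A or tumor Matrigel B) and 0 to 1 lower between the gels in tumor organoids, 1 to 2 lower in Matrigel and 0 to 1 lower in collagen I.

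Of the 106 other cilia genes, collagen I had 5 higher and 1 lower in tumor organoids with normexp and the 75th percentile, 25 higher with normexp and quantile normalization, 22 and 2 with slide fixed, 23 and 1 with only the groups compared, and 3 lower with no filter. The shares of all genes were, in that order, 2.66% and 4.12%, 11.8%, 10.6% and 3.83%, 8.54% and 5.08%, and 5.18%. In Matrigel 30 were higher and 21 lower with normexp and the 75th percentile, 19 higher with quantile normalization and 20 with the authors' values. The shares of all genes were, in that order, 38.7% and 11.5%, 23.2% and 22.7%. In collagen I 1 was higher and 1 lower with normexp and the 75th percentile, 2 higher with normexp and quantile normalization or a trend, 3 with no filter or the all-12 filter, and 0 higher and 1 lower with slide fixed. The shares of all genes were, in that order, 2.3% and 1.77%, 4.14%, 4.5%, 1.73%, 3.64%, and 0.328% and 0.722%. Gel effects higher in tumor numbered 1 with quantile normalization (with or without normexp), the authors' values or no filter, 0 with normexp and the 75th percentile or mouse as a block, 5 with flagged spots kept or probes averaged, 15 with batches averaged, 19 with batch 1 in place, 18 with mouse and 16 with slide as random blocks. Those lower were 2 with batches averaged, batch 1 in place or mouse random, and 1 with slide random. Of all genes 7.46%, 10.4%, 4.98% and 5.04% were higher with batches averaged, batch 1 in place, mouse random and slide random. The shares lower were 4.89%, 6.42%, 4.38% and 4.1%. With flagged spots kept or probes averaged 1.29% and 1.27% were higher. In the settings with 0 or 1 cilia gene higher the share ran from 0 to 0.503%. Leaving out 1 array gave 26 to 43 higher and 3 to 8 lower between the gels in tumor organoids, 9 to 13 and 41 to 51 in Matrigel, 1 to 6 and 2 to 9 in collagen I, and 1 to 12 and 0 to 2 gel effects. Of all genes 8.7% to 16.5% were then higher between the gels in tumor organoids, and 0.0271% to 6.99% had a higher gel effect. Mouse as a block changed no other call of a member. With 3 arrays a group, and with Tekt1, Spag6 and most of Dnali1 below background, small changes of dim genes were not detectable.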
